A study of Mus musculus with 12 samples.

Results

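Ba/F3 cells carrying the SFPQ-ABL1 fusion, which grew without interleukin-3 (IL-3), were compared with Ba/F3 cells carrying the empty MSCV retroviral vector, which grew with 0.5 ng/ml murine IL-3. Each group held 4 lines, so the comparison used 8 of the 12 RNA sequencing libraries of the series, chosen by their labels. The other 4 libraries came from lines with BCR-ABL1, also grown without IL-3, and are used to share the estimate of spread and to test whether a gene differed between the fusions. Ba/F3 is a mouse cell line that dies without IL-3 unless another signal replaces it, and the labels give it as pro-B cells from blood. The design text calls the lines of a group biologically independent, so the p-values below measure the spread between lines. The fusion and the absence of IL-3 went together in these groups, so their effects cannot be told apart in this comparison.

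ABL1 is a tyrosine kinase, and SFPQ is an RNA-binding protein of the nucleus. In fusions such as BCR-ABL1 the kinase is constantly active and feeds the pathways that a cytokine receptor would otherwise switch on: JAK-STAT5, RAS-ERK and PI3K-AKT. IL-3 itself signals through a receptor made of an alpha chain, Il3ra, and a beta chain, Csf2rb or, in mice, Csf2rb2, with the kinase JAK2 bound to it, and STAT5 is its best known transcription factor.

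Gene totals ran from 66040297 to 79316348 counts in the MSCV libraries and from 59355018 to 80616227 in the SFPQ-ABL1 libraries, and it took 59.4 to 80.6 counts to make 1 CPM, the usual scaling of counts by library size. All gene levels below are CPM scaled by TMM factors, and exon levels are CPM from exon counts and the library's gene total. Of the early B cell markers, 15 of 20 were under 1 CPM in all 8 lines, among them Pax5, Ebf1 and Vpreb1, and Il7r and Rag2 had no count. Cd79a, the signalling chain of the B cell receptor, was present at 88.6 to 98.2 CPM in the MSCV lines.

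Some mouse exons of Abl1 and Sfpq gained reads in the SFPQ-ABL1 lines. The exon table held 17.0 to 19.7% as many counts as the gene table in the 8 lines, and the labels do not give the species of the fusion insert, so exon levels count reads on mouse exons and are no measure of the whole fusion transcript. Abl1 exon 9 (chromosome 2, 31796973 to 31797062, mm10, exon numbers of Abl1-202) stood at 17.8, 4.36, 20.9 and 26.8 CPM in SFPQ-ABL1 lines 1 to 4. The MSCV lines were at 0.0454 to 0.0529, far below every fusion line. Sfpq exon 9 (chromosome 4, 127027397 to 127027518, exon numbers of Sfpq-201) gave 14.5, 4.39, 17.1 and 20.02 in the same lines against 1.57 to 2.09 with the vector. Line 2 was lowest of the 4 on both exons, with 0.1998 times the mean of the other 3 lines on Abl1 exon 9. It was still above all MSCV lines there.

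The gain was uneven along both genes. Sfpq exon 5 was at 9.31, 3.36, 10.3 and 11.4 in SFPQ-ABL1 lines 1 to 4 against 1.77 to 1.87 in the MSCV lines, with line 2 again nearest to the vector. Abl1 exons 4 and 7 were higher in the SFPQ-ABL1 lines too, at 0.529 to 2.04 and 0.595 to 2.36, with line 2 lowest. Abl1 exon 3 stood at 0.224 to 0.397 in the SFPQ-ABL1 lines and 0.185 to 0.454 in the MSCV lines, which overlap. Sfpq exon 10, the last exon, overlapped as well, at 6.62 to 10.6 against 6.78 to 7.80. Summed over the whole gene, Abl1 was at 116, 104, 130 and 134 CPM against 99.7, 81.6, 106 and 102, a 1.24-fold difference that did not pass the test (edgeR adjusted p = 0.134). Sfpq likewise did not (1.29-fold, adjusted p = 0.174).

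**Figure D1:**
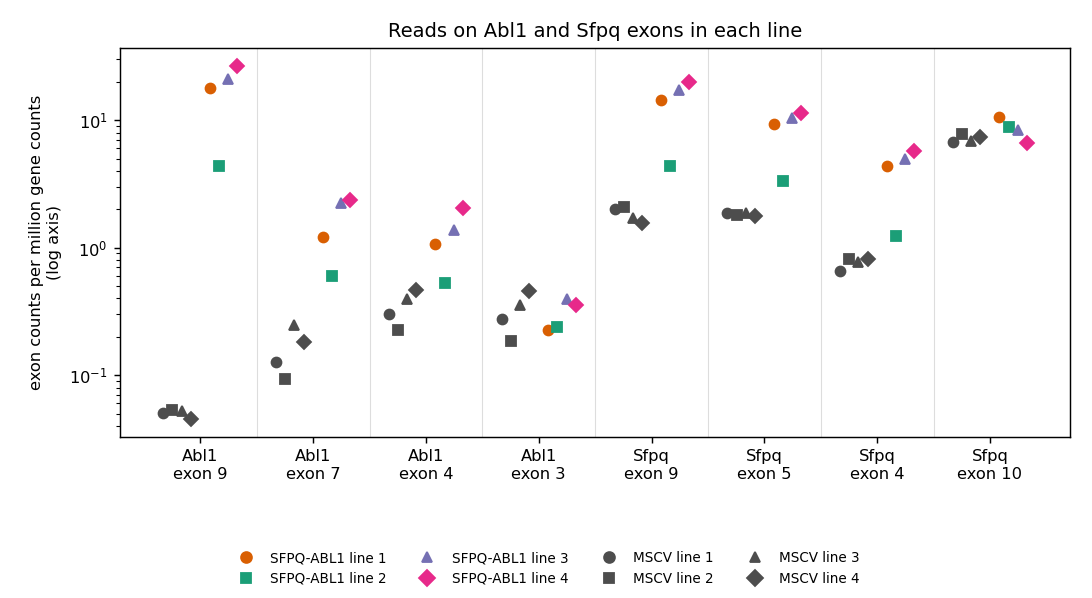
Exon levels in CPM (exon counts scaled by the library's gene total, log axis) on 8 exons of Abl1 and Sfpq, 1 point per line, coloured points for SFPQ-ABL1 lines and grey points for MSCV lines. On Abl1 exon 9 the SFPQ-ABL1 lines sit between 4.36 and 26.8 with line 2 lowest, and on Abl1 exon 3 and Sfpq exon 10 the groups overlap.

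Across all genes, 308 of 17197 tested passed an adjusted p under 0.05 in edgeR's quasi-likelihood test, which is 1.79%. The SFPQ-ABL1 lines were higher in 140 of them (0.814% of the genes tested) and lower in 168 (0.977%). Without scaling factors 324 genes passed, 210 of them higher and 114 lower, so the share of higher calls was 64.8% there and 45.5% with TMM factors. A 2-fold change or more was found in 106 of the 308 (0.616% of the genes tested), and 248 of them are protein coding. The lines of the groups did not overlap in 289 of the 308 (1.68% of the genes tested), beside 1932 (11.2%) of all genes tested. At an unadjusted p under 0.05 stood 3194 genes (18.6%). Leaving out single libraries gave 33 to 467 calls, lowest without MSCV line 3 and highest without SFPQ-ABL1 line 2, and the counts without each library are given with the alternatives. A fit of the 8 libraries alone called 110 genes, 102 of them (33.1%) among the 308. Of the genes named below it lost Socs1, Pim2, Irs2, Gab3, Junb, S100a10, Anxa1, Gsn, Slfn2, Sec31a, Tfrc, Mpo, Ypel3, Fgl2, Serpina3g and Gata2, at adjusted p of 0.0528 to 0.103. In a fit of the 8 libraries less SFPQ-ABL1 line 2, 289 genes passed, 141 higher and 148 lower.

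A group of 31 genes passed in all 19 other ways of fitting the data, which included leaving out each library in turn. Of these, 24 are protein coding, with 8 higher and 16 lower in the SFPQ-ABL1 lines. The plot of these genes shows 4 fusion lines on one side of 4 vector lines for each. Calls on these same lines picked the genes, so the separation is a description and no further support.

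Cish, a STAT5 target whose protein damps cytokine receptor signalling, rose most among the stable genes above 5 CPM. It was at 136, 83.9, 218 and 274 CPM in SFPQ-ABL1 lines 1 to 4 and at 36.9, 24.4, 31.96 and 30.9 CPM in MSCV lines 1 to 4. Every fusion line exceeded every vector line, and line 2 was the lowest fusion line. The fitted change was 5.74-fold (log2 2.52 ± 0.30 SE, edgeR adjusted p = 0.0064).

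Ikzf4, which encodes the Ikaros-family zinc finger protein Eos, was at 12.2, 9.03, 12.02 and 14.4 CPM against 4.37, 5.49, 3.45 and 4.44 (2.69-fold, adjusted p = 0.00841). Repin1, a zinc finger gene named for binding near a replication origin, was at 63.4, 53.7, 69.3 and 87.3 CPM against 32.2, 18.7, 24.1 and 30.4 (2.59-fold, adjusted p = 0.0099). In both genes line 2 was the lowest SFPQ-ABL1 line and still above all MSCV lines.

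The other stable protein-coding risers changed less than 2-fold, apart from Smim5. Odc1, the first enzyme of polyamine synthesis, was at 144, 142, 131 and 118 CPM against 90.4, 84.5, 68.7 and 65.2 (1.73-fold, adjusted p = 0.0099). Bms1, a factor of small ribosomal subunit assembly, was at 148, 134, 153 and 164 CPM against 97.0, 103, 89.4 and 88.6 (1.58-fold, adjusted p = 0.0064). Esco2, an acetyltransferase that fixes cohesin on chromosomes, rose 1.75-fold and Suv39h2, a histone H3 methyltransferase of heterochromatin, rose 1.63-fold, both at an adjusted p of 0.0103. Smim5, a small membrane protein gene, rose from 0.278 to 0.491 CPM to 1.12 to 5.47 CPM (8.88-fold, adjusted p = 0.0103).

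Among the stable falls above 5 CPM the adjusted p was smallest in Tcn2, Cd63 and Npc2, which have roles in lysosomes, endosomes or vitamin transport. Tcn2, the vitamin B12 carrier transcobalamin, fell to 57.4, 76.5, 68.7 and 82.7 CPM from 149, 153, 130 and 141 CPM (2.005-fold, adjusted p = 0.0064). Npc2, the lysosomal cholesterol carrier, stood at 224, 275, 285 and 300 CPM against 419, 482, 439 and 459 (1.66-fold lower, adjusted p = 0.00723). Cd63, a tetraspanin of late endosomes, stood at 121 to 141 CPM against 192 to 217 (1.62-fold lower, adjusted p = 0.0064).

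Reads of Cd63 may be shared with its processed pseudogene Cd63-ps, which was also among the 31 genes (1.65-fold lower), so these counts are not independent. Creg1, a secreted glycoprotein found in lysosomes, fell 1.62-fold, and Lrpap1, a chaperone of LDL-receptor family proteins, fell 1.57-fold, both at an adjusted p of 0.0115. Ergic3, of the compartment between endoplasmic reticulum and Golgi, fell 1.54-fold (adjusted p = 0.0103).

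Fxyd5, a regulator of the sodium pump that weakens cell adhesion, was at 99.1, 167, 157 and 139 CPM against 292, 299, 301 and 260 (2.05-fold lower, adjusted p = 0.00841). Glp1r, the receptor for glucagon-like peptide 1, was at 1.57 to 2.43 CPM against 3.73 to 7.61 (2.68-fold lower, adjusted p = 0.0136). Ezh1, a histone H3 lysine methyltransferase of Polycomb complexes, was at 26.99 to 30.7 CPM against 41.96 to 52.1 (1.64-fold lower, adjusted p = 0.0111). Cyba, the small subunit of the NADPH oxidase cytochrome, fell 1.49-fold (adjusted p = 0.0115). Spint2, an inhibitor of membrane serine proteases, fell 1.497-fold (adjusted p = 0.0103), Pon3, a paraoxonase, 1.47-fold (adjusted p = 0.0111) and Zpbp, named for zona pellucida binding, 1.89-fold (adjusted p = 0.00841). Pla2g2e, a secreted phospholipase A2, was low throughout, at 0.0804 to 0.158 CPM against 0.453 to 0.766 (4.75-fold lower, adjusted p = 0.0064).

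**Figure D2:**
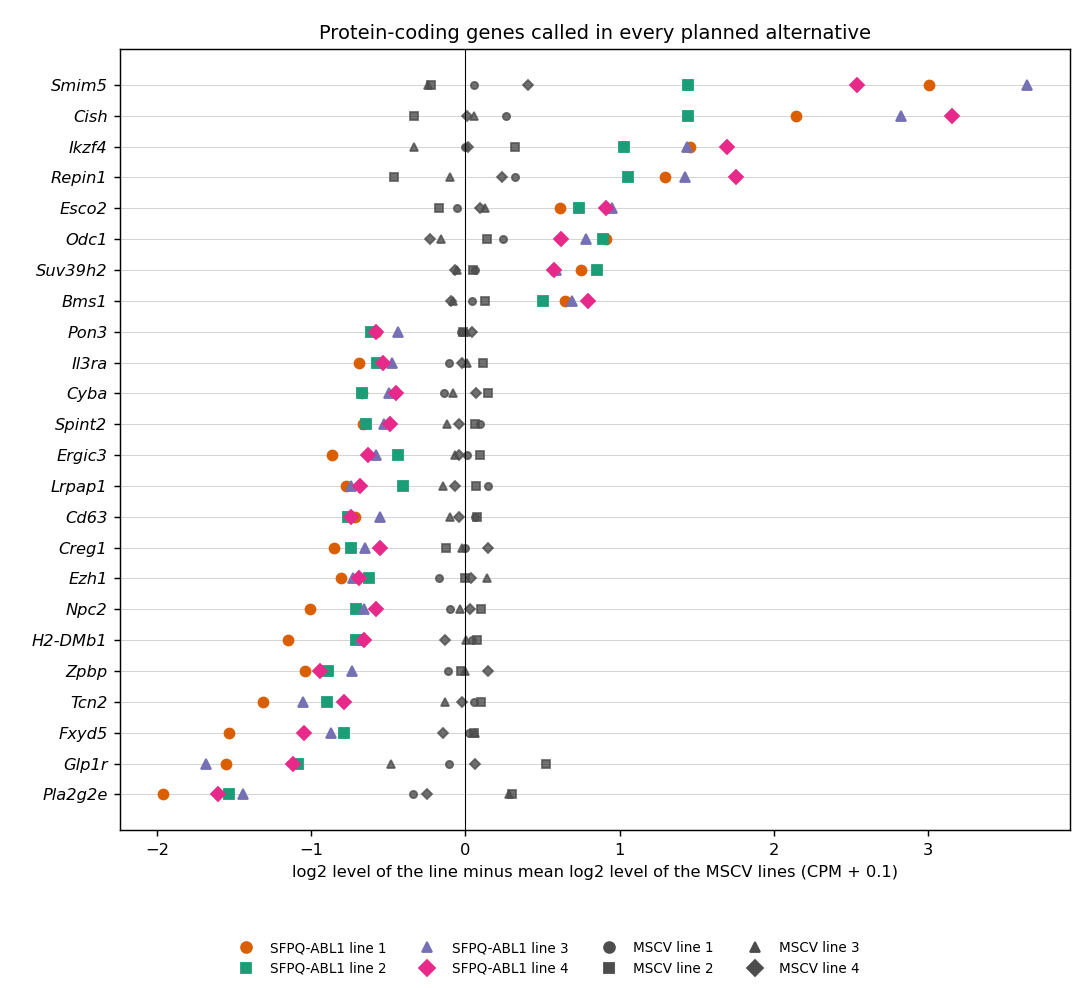
Log2 level of each line minus the mean log2 level of the MSCV lines (CPM + 0.1) for the 24 protein-coding genes that passed in all 19 other fits, coloured points for SFPQ-ABL1 lines and grey points for MSCV lines. Points of the groups do not overlap in any gene shown, and among the risers SFPQ-ABL1 line 2 lies nearest to the MSCV lines for Smim5, Cish, Ikzf4, Repin1 and Bms1.

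The 7 other stable genes, Cd63-ps among them, are not protein coding and were named after their values were seen, outside the rule for named genes. The pseudogene Gm7364 was higher by 2.44 on the log2 scale, and the non-coding genes Gm49454 and Gm11999 fell by 1.99 and 2.17. Tcrg-C2, Tcrg-C3 and Trgj2 are segments of the T cell receptor gamma locus. Tcrg-C2 was at 390, 158, 346 and 353 CPM in SFPQ-ABL1 lines 1 to 4 and at 122, 115, 69.2 and 77.7 CPM in the MSCV lines (3.25-fold higher, adjusted p = 0.0103). Line 2 was again the lowest fusion line. Tcrg-C3 (3.61-fold) and Trgj2 (3.05-fold) also had line 2 as the lowest fusion line. Constant segments of this locus are near-identical copies, so reads may be split or shared between them. Against BCR-ABL1, Tcrg-C2 was higher in SFPQ-ABL1 lines by a log2 difference of 2.82 (adjusted p = 6.23e-05). The T and NK cell markers held no gene called by edgeR among 7 tested, with 3 at an unadjusted p under 0.05 and 1 called lower by DESeq2. Below zero were 6 of the 7, beside 50.3% of all genes tested, and the median log2 change was -0.70. Their summed level was 12.4 to 59.8 CPM in the SFPQ-ABL1 lines and 46.9 to 265 CPM in the MSCV lines. Gzmb, a granule protease, made up 28.5 to 234 CPM of it in the MSCV lines and 1.29 to 45.6 CPM in the SFPQ-ABL1 lines. Cd3g, which was not called, was at 2.05 to 3.89 CPM in the SFPQ-ABL1 lines, and Trbc1, Trbc2 and Cd8a had no count in any of the 8 lines.

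The rise of Cish led to a look at its promoter for TTCNNNGAA, the palindromic pattern that STAT5 is known to bind. RefSeq windows of 250 bases before to 50 after each RefSeq start (GRCm38.p6) were searched, and because the pattern is a palindrome 1 search covers both strands. A RefSeq start can differ from the outermost start of the gene in the GENCODE M21 annotation. It was present in 8.30% of 32851 windows, and at least 2 copies were present in 0.457%. Of the 140 higher genes, 82 had a window and 12 of those (14.6%) held the pattern. Of the 168 lower genes, 125 had a window and 11 (8.8%) held it, beside 8.47% of 10402 tested genes with a window. The stretches below show the copies, in capitals, in Cish and in another pair of named risers, with Fgl2 as a gene that fell.
Cish, chr9:107296654-107296683, plus strand: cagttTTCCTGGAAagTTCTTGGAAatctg
Serpina3g, chr12:104236104-104236133, plus strand: taagttatagTTCCCAGAAatcacccggtc
Slco1a5, chr6:142279090-142279119, minus strand: ctggttaggtTTCCTTGAAgggcatattcc
Fgl2, chr5:21372627-21372656, plus strand: gcccgcccttTTCTGGGAActcagaacgcc
In Cish the first copy begins at the RefSeq start, and the second follows within the same 30 bases. The GENCODE M21 start lies upstream of the stretch shown in 2 of these genes. It is at 107296026 for Cish (plus strand) and at 142322981 for Slco1a5 (minus strand). Both stretches thus lie inside the annotated gene. The windows of Socs1, Pim2 and Irs2 did not hold these letters, which says nothing on STAT5 elsewhere in those genes. A match is a description of letters and not a measured binding site.

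Of 19 tested genes in the STAT5 and IL-3 response list, 3 rose (Cish, Socs1 and Pim2), beside 0.814% of all genes tested, and none fell, with a median log2 change of 0.01 beside -0.00191 over all genes tested. Socs1, a feedback inhibitor of JAK kinases, was at 17.95, 9.40, 23.8 and 24.01 CPM against 9.05, 5.38, 4.26 and 3.70 (3.35-fold, adjusted p = 0.0266). Line 2, at 9.40 CPM, was just above MSCV line 1, at 9.05 CPM. Its call was lost without MSCV line 2, 3 or 4 or SFPQ-ABL1 line 1, 3 or 4, at adjusted p of 0.0574 to 0.0842.

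Pim2, a serine kinase that supports survival and growth, was at 16.4, 49.4, 43.2 and 77.6 CPM against 13.8, 17.7, 13.8 and 14.2 (3.13-fold, adjusted p = 0.0432). Line 1 lay within the MSCV range, so the groups overlapped. The call remained only without SFPQ-ABL1 line 1 or BCR-ABL1 line 1 or 2, and adjusted p reached 0.119 without MSCV line 3. Bcl2l1, which encodes the survival protein BCL-XL, was at 46.2 to 57.5 CPM against 34.5 to 48.2 (1.31-fold, adjusted p = 0.142), and Ccnd2, cyclin D2, at 152 to 193 CPM against 136 to 169 (1.11-fold, adjusted p = 0.453).

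The difference between the fusions was tested directly. It did not pass for Cish and Socs1 and passed for Pim2, Bcl2l1 and Ccnd2. Cish was at 163 to 260 CPM and Socs1 at 10.8 to 20.6 CPM in the BCR-ABL1 lines, and SFPQ-ABL1 minus BCR-ABL1 was -0.28 ± 0.29 (SE) on the log2 scale for Cish (adjusted p = 0.502) and 0.36 ± 0.32 (SE) for Socs1 (adjusted p = 0.445). Pim2 was lower in SFPQ-ABL1 lines than in BCR-ABL1 lines by a log2 difference of -2.14 (adjusted p = 0.00137), Bcl2l1 by -1.18 (adjusted p = 0.000141) and Ccnd2 by -1.11 (adjusted p = 4.8e-05).

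In the list of the IL-3 receptor and JAK-STAT genes, 1 of 21 fell, beside 0.977% of all genes tested, and none rose. Il3ra, the alpha chain that gives the receptor its specificity, was at 52.8, 57.3, 61.2 and 58.7 CPM in SFPQ-ABL1 lines against 79.2, 92.2, 85.6 and 84.1 (1.48-fold lower, adjusted p = 0.0115). It is one of the 31 stable genes, and all fusion lines were below all vector lines. Csf2rb was at 502 to 1218 CPM against 958 to 2081 (1.61-fold lower, adjusted p = 0.24) and Jak2 at 128 to 190 CPM against 151 to 396 (1.44-fold lower, adjusted p = 0.294), with overlap in both. The list's median was -0.21, with 16 of 21 members below zero, beside 50.3% of all genes tested.

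**Figure D3:**
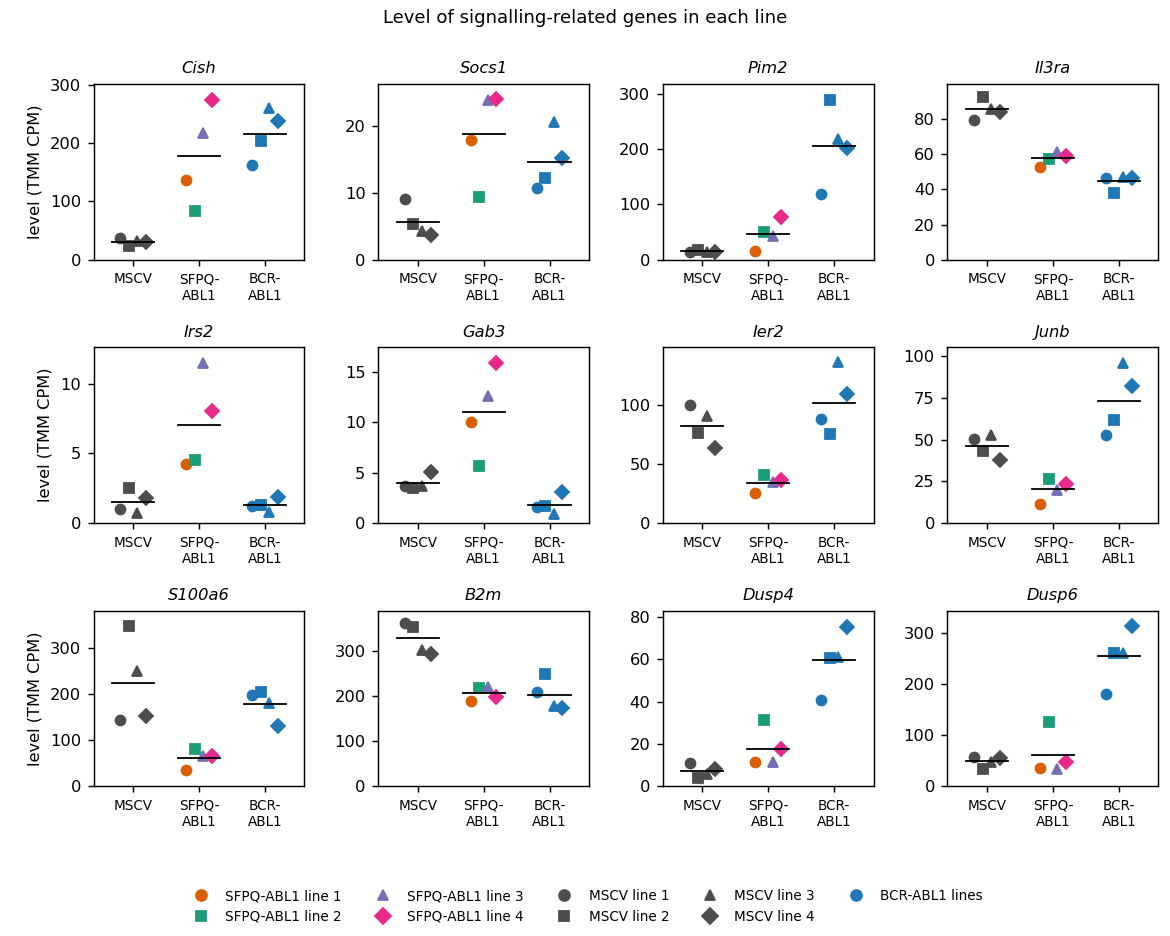
Levels in TMM CPM of 12 genes, 1 point per line (grey MSCV, coloured SFPQ-ABL1, blue BCR-ABL1), with the mean of each group as a bar. Cish and Socs1 are above and Il3ra, Ier2, Junb, S100a6 and B2m below the MSCV lines in all SFPQ-ABL1 lines, and SFPQ-ABL1 line 2 has the highest Dusp4 and Dusp6 of the SFPQ-ABL1 lines.

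Immediate early genes were lower in SFPQ-ABL1 lines where they changed. Of 25 members tested in this list, 2 fell (0.977% of all genes tested did) and none rose. Below zero were 19 of the 25, beside 50.3% of all genes, and the median was -0.39. Ier2, a gene switched on within minutes of growth factor stimulation, was at 25.4, 40.6, 34.98 and 36.4 CPM against 100, 75.9, 90.6 and 63.4 (2.41-fold lower, adjusted p = 0.0115). Junb, a component of the AP-1 transcription factor, was at 11.6, 26.2, 19.7 and 23.7 CPM against 50.3, 43.2, 53.005 and 37.7 (2.27-fold lower, adjusted p = 0.0315). The groups did not overlap in either. Without MSCV line 3 the adjusted p was 0.051 for Ier2. The call of Junb was lost without MSCV line 2, 3 or 4 or SFPQ-ABL1 line 3 or 4, at 0.0526 to 0.089.

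Zfp36, which encodes a protein that destabilises cytokine messages, was at 3.58 to 7.51 CPM against 10.6 to 17.2 (2.14-fold lower, adjusted p = 0.0713, and 0.00496 by DESeq2). In BCR-ABL1 lines the same genes stood higher: Ier2 at 75.7 to 136 CPM and Junb at 52.5 to 96.0 CPM. The differences between the fusions were -1.57 for Ier2 (adjusted p = 0.000246), -1.85 for Junb (adjusted p = 0.000287) and -1.61 for Zfp36 (adjusted p = 0.00178) on the log2 scale.

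The ERK feedback and output list, inhibitors and transcription factors that ERK signalling is known to induce, had no called member by edgeR in 18 tested here, and the median was 0.33, or 0.17 without SFPQ-ABL1 line 2. An unadjusted p under 0.05 was found for 7 of them, and DESeq2 called 3, all higher. With edgeR 1 was called without MSCV line 1, without SFPQ-ABL1 line 1 or without scaling factors, and 3 without the filter on low counts. Dusp4, a phosphatase that switches off ERK, was at 11.4, 31.2, 11.2 and 17.5 CPM against 11.1, 3.91, 5.82 and 7.98 (2.47-fold, adjusted p = 0.0822, and 0.00524 by DESeq2). Dusp6, a cytoplasmic ERK phosphatase, was at 35.4, 125, 34.4 and 47.7 CPM against 56.6, 34.2, 48.3 and 55.7 (1.25-fold, adjusted p = 0.671). Etv5, an ETS factor, was at 9.81, 52.4, 4.04 and 9.55 CPM against 13.03, 6.83, 2.34 and 3.04 (2.997-fold, adjusted p = 0.239). In these genes line 2 stood above the other SFPQ-ABL1 lines. Without line 2 the fitted Dusp6 change was -0.32 on the log2 scale, and Etv5 was 1.22-fold higher (adjusted p = 0.788).

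Over the whole ERK list, line 2 was the highest SFPQ-ABL1 line in 11 of 18 genes (61.1%), beside 27.7% of all genes tested. It was also highest in 21 of 27 genes (77.8%) of the glycolysis and hypoxia list and in 20 of 26 (76.9%) of the S phase list. These shares were noticed in the data and carry no test. Dusp4 was lower in SFPQ-ABL1 than in BCR-ABL1 lines by a log2 difference of -1.74 (adjusted p = 0.00379), and Dusp6 by -2.07 (adjusted p = 0.00168).

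The PI3K, AKT and insulin substrate list had 1 riser of 32 tested (0.814% of all genes rose) and no fall, with a median of 0.02. Irs2, an adaptor that links insulin and cytokine receptors to PI3K, was at 4.25, 4.52, 11.5 and 8.01 CPM against 1.03, 2.54, 0.74 and 1.80 (4.63-fold, adjusted p = 0.0266). Its call was lost without MSCV line 3 or 4 or SFPQ-ABL1 line 3 or 4, at 0.0632 to 0.0742. Gab3, an adaptor of the same docking protein family as GAB2, was at 10.01, 5.68, 12.6 and 15.8 CPM against 3.70, 3.43, 3.65 and 5.08 (2.78-fold, adjusted p = 0.0488). It was the sole called member of 27 in the ABL adaptor list, beside 0.814% of all genes tested that rose. Gab3 remained called only without SFPQ-ABL1 line 2 or BCR-ABL1 line 3 or 4, and adjusted p reached 0.138 without MSCV line 3.

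Both adaptors were higher in SFPQ-ABL1 than in BCR-ABL1 lines, with log2 differences of 2.43 for Irs2 (adjusted p = 0.00152) and 2.59 for Gab3 (adjusted p = 0.00038). Pik3c2g, a class II PI3K, was at 407 to 606 CPM against 643 to 1942 (2.90-fold lower, adjusted p = 0.0935, called at 0.0457 without BCR-ABL1 line 3 and at 0.0165 by DESeq2). In the FOXO list, targets that AKT signalling is known to restrain, Irs2 and Arrdc3 rose and Ypel3 fell among 18 tested. Of all genes tested 0.814% rose and 0.977% fell. Below zero were 13 of the 18, beside 50.3% of all genes tested, and the median was -0.32. DESeq2 called 3 higher and 5 lower. Arrdc3, an arrestin-domain regulator of receptor trafficking, was at 29.3 to 37.1 CPM against 17.7 to 22.1 (1.70-fold, adjusted p = 0.0191). Ypel3 was at 12.1 to 25.6 CPM against 28.7 to 50.2 (2.17-fold lower, adjusted p = 0.029). Arrdc3 lost its call without MSCV line 2 or 3 or SFPQ-ABL1 line 1 or 4 (0.0523 to 0.0602), and Ypel3 without MSCV line 2, 3 or 4 or SFPQ-ABL1 line 1 or 4 (0.0569 to 0.0847).

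S100 proteins, small calcium-binding proteins that often partner with annexins, gave 3 falls and 1 rise among 9 tested, where 0.977% of all genes fell and 0.814% rose, and the median was -0.78. S100a6 was at 35.1, 81.4, 64.6 and 65.3 CPM against 144, 347, 249 and 152 (3.62-fold lower, adjusted p = 0.0123, and 0.051 without MSCV line 3). S100a11 was at 18.1 to 22.8 CPM against 31.6 to 42.0 (1.71-fold lower, adjusted p = 0.0143, and 0.0526 without SFPQ-ABL1 line 4). S100a10, the partner of annexin A2, was at 106 to 202 CPM against 224 to 333 (1.82-fold lower, adjusted p = 0.0459); it remained called only without SFPQ-ABL1 line 2 or BCR-ABL1 line 2 or 4, with adjusted p up to 0.122 without SFPQ-ABL1 line 1. The groups did not overlap in any of these genes.

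S100g, a vitamin D-dependent calcium carrier, went the other way and differed widely between fusion lines. It was at 12.8, 0.130, 32.4 and 2.40 CPM in SFPQ-ABL1 lines 1 to 4 and at 0 to 0.0755 CPM in MSCV lines, which held 8 counts in all beside 3774 in the SFPQ-ABL1 lines (adjusted p = 0.0205). Line 2 was near the vector level. The fitted fold moved from 416 to 1087 without MSCV line 1 and to 177 without SFPQ-ABL1 line 3, and the call was lost without MSCV line 2, 3 or 4 (0.0628 to 0.0747).

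Among the annexins, 1 of 9 fell, beside 0.977% of all genes tested, and none rose. Anxa1, an anti-inflammatory annexin, was at 2.44, 13.9, 3.44 and 8.27 CPM against 35.6, 36.1, 26.0 and 19.3 (4.17-fold lower, adjusted p = 0.0379). The fall was 6.26-fold without SFPQ-ABL1 line 2, the line nearest to the vector. The call remained only without that line or without BCR-ABL1 line 1, 2 or 4, with adjusted p up to 0.0869 without SFPQ-ABL1 line 4. Gsn, gelsolin, which severs actin filaments, fell to 134 to 311 CPM from 440 to 585 CPM (2.18-fold, adjusted p = 0.0163). Its call was lost without MSCV line 2 (0.0518) or line 3 (0.052). S100a6 and Anxa1 were lower than in BCR-ABL1 lines by log2 differences of -1.54 (adjusted p = 0.00257) and -2.14 (adjusted p = 0.00378).

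Of 15 antigen presentation genes tested, 3 fell, beside 0.977% of all genes, and none rose. DESeq2 called 11 lower, edgeR without the filter on low counts 6, and leaving out single libraries gave 1 to 5, with 1 without MSCV line 2 or 3 or SFPQ-ABL1 line 1 or 4 and 5 without BCR-ABL1 line 4. Below zero were 14 of the 15, beside 50.3% of all genes, and the median was -0.63. The lines of the groups did not overlap, on the lower side, in 10 of the 15, beside 6.24% of all genes tested. H2-DMb1, a chain of the chaperone that loads peptide on class II molecules, was at 14.01, 19.1, 19.6 and 19.8 CPM against 32.3, 33.01, 31.3 and 28.6 (1.73-fold lower, adjusted p = 0.0103), and is one of the stable genes.

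B2m, the light chain of class I molecules, was at 190, 219, 220 and 199 CPM against 362, 354, 304 and 295 (1.59-fold lower, adjusted p = 0.0205). Tapbp, tapasin, which bridges class I molecules to the peptide transporter, was at 67.0, 81.3, 86.6 and 85.8 CPM against 133, 136, 116 and 118 (1.57-fold lower, adjusted p = 0.0435). B2m lost its call without MSCV line 2 or 3 or SFPQ-ABL1 line 1 or 4 (0.052 to 0.0627), and Tapbp kept it only without BCR-ABL1 line 2 or 4, with 0.12 without SFPQ-ABL1 line 1. H2-D1, a class I heavy chain, was at 59.7 to 102 CPM against 119 to 166 (1.62-fold lower, adjusted p = 0.0516, and 0.00471 by DESeq2). It was called without SFPQ-ABL1 line 2 (0.0318) or BCR-ABL1 line 2 (0.049), and class I heavy chains are close copies whose reads may be shared.

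In the interferon list 1 of 24 fell, beside 0.977% of all genes, none rose, and the median was -0.36. DESeq2 called 7 lower, edgeR without the filter on low counts 3, and leaving out single libraries gave 0 to 3, with 3 without BCR-ABL1 line 4. Irf7, a master factor of the interferon response, was at 3.98, 5.60, 5.27 and 5.36 CPM against 8.02, 12.6, 9.32 and 9.45 (1.95-fold lower, adjusted p = 0.0295). The call was lost without MSCV line 2, 3 or 4 or SFPQ-ABL1 line 1, 3 or 4 (0.0658 to 0.0841).

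**Figure D4:**
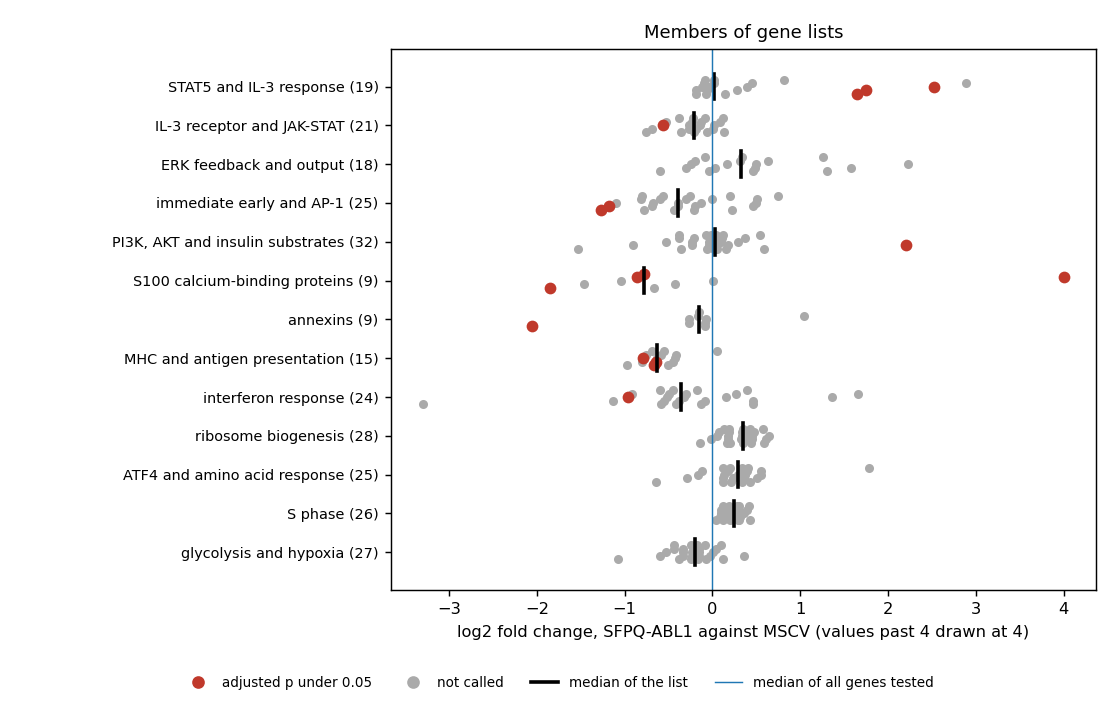
Log2 fold change of SFPQ-ABL1 against MSCV for the tested members of 13 gene lists, 1 point per gene, red where the adjusted p is under 0.05, with the median of each list as a black bar. The S100 list has its median at -0.78 and the antigen presentation list at -0.63, while the STAT5 and IL-3 response list has 3 red points far to the right and a median of 0.01.

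The ribosome biogenesis, S phase and ATF4 lists held no call in the main edgeR fit. Leaving out MSCV line 1 gave 7 risers in the ribosome biogenesis list and 6 in the ATF4 list. With a term for replicate number edgeR called 3 ribosome biogenesis genes higher, and without the filter on low counts 1 ATF4 gene. In the ribosome biogenesis list 0 of 28 genes passed and 26 were above zero, with a median of 0.34 and 10 genes at an unadjusted p under 0.05. Line 1 was the highest SFPQ-ABL1 line in 23 of the 28 (82.1%), beside 27.2% of all genes tested, a share noticed in the data. In the S phase list 0 of 26 passed, all 26 were above zero and 8 had an unadjusted p under 0.05. The median was 0.25, or 0.12 without SFPQ-ABL1 line 2, which was the highest SFPQ-ABL1 line in 20 of the 26. The ATF4 and amino acid response list had 0 calls of 25, a median of 0.29 and 9 genes at an unadjusted p under 0.05. DESeq2, which called 1131 genes over the whole table, called 1 riser in the ribosome list, 3 in the S phase list and 1 in the ATF4 list.

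The largest rises differed in size between SFPQ-ABL1 lines. Nlrp6, an intestinal inflammasome sensor, was at 3.97, 5.92, 18.3 and 20.9 CPM against 0.0403 to 0.153 (126-fold, adjusted p = 0.0267). Rnase6, an antimicrobial ribonuclease of leukocytes, was at 22.6, 3.86, 7.76 and 13.1 CPM against 0.0614 to 0.659 (40.3-fold, adjusted p = 0.0275). Slco1a5, an organic anion transporter, was at 42.1, 10.6, 25.4 and 49.4 CPM against 0.255 to 1.63 (43.2-fold, adjusted p = 0.0266). All SFPQ-ABL1 lines were above all MSCV lines in these genes, and line 2 was lowest in Rnase6 and Slco1a5.

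These calls rested on the full set of lines. Nlrp6 lost its call without MSCV line 2, 3 or 4 or SFPQ-ABL1 line 3 or 4 (0.0568 to 0.0885), and Rnase6 without any MSCV line or SFPQ-ABL1 line 1 or 4 (0.0501 to 0.0885). Slco1a5 lost it without MSCV line 2, 3 or 4 or SFPQ-ABL1 line 1 or 4 (0.0507 to 0.0831). The fold of Rnase6 was 69.1 without MSCV line 2, and that of Slco1a5 was 69.9 without MSCV line 4. Nlrp6 and Rnase6 were higher than in BCR-ABL1 lines by log2 differences of 4.75 (adjusted p = 0.0096) and 4.73 (adjusted p = 0.00433).

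Slfn2, a Schlafen family gene tied to quiescence of lymphocytes, was at 22.5, 67.8, 45.9 and 80.5 CPM against 16.9, 2.90, 4.97 and 8.53 (6.50-fold, adjusted p = 0.0235, and 9.98-fold without MSCV line 1). B3gnt7, a glycosyltransferase of keratan sulfate chains, was at 12.2 to 15.4 CPM against 1.93 to 6.29 (3.77-fold, adjusted p = 0.0191). Both lost the call without MSCV line 2, 3 or 4 or SFPQ-ABL1 line 4, at 0.0518 to 0.0747 for Slfn2 and 0.055 to 0.0601 for B3gnt7. Serpina3g, a protease inhibitor with close relatives in its gene cluster whose reads may be shared, was at 139 to 457 CPM against 22.0 to 114 (5.21-fold, adjusted p = 0.0351). Its fold was 8.10 without MSCV line 1, and the call was lost without MSCV line 2, 3 or 4, SFPQ-ABL1 line 1, 3 or 4 or BCR-ABL1 line 3 (0.0531 to 0.0929).

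A set of risers was called in 11 of the 12 fits that left out 1 library, the exception being MSCV line 3. Kcnk5, a potassium leak channel, was at 214, 123, 206 and 218 CPM against 103, 92.7, 84.3 and 98.2 (2.01-fold, adjusted p = 0.0115, and 0.0513 without that line). Ankrd10 was at 290, 141, 235 and 254 CPM against 128, 98.2, 101 and 103 (2.14-fold, adjusted p = 0.0123, and 0.052 without it). Line 2 was the lowest fusion line in both. Sec31a, an outer coat subunit of vesicles leaving the endoplasmic reticulum, was at 140, 111, 112 and 110 CPM against 65.4 to 85.4 (1.52-fold, adjusted p = 0.0138, and 0.051 without it). These 3 genes were also higher than in BCR-ABL1 lines, by 0.83 (adjusted p = 0.00228), 0.78 (adjusted p = 0.00601) and 0.58 (adjusted p = 0.00135) on the log2 scale.

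Markers of other blood cells were checked beside these results. Of the granulocyte and monocyte markers 1 of 9 tested rose, beside 0.814% of all genes tested, and none fell. Of the 9, 3 were below and 6 above zero. The median log2 change was 0.85, or 1.15 without SFPQ-ABL1 line 2. The riser was Mpo, the myeloperoxidase of granulocyte precursors, at 76.0, 19.2, 41.5 and 43.5 CPM against 5.60, 9.79, 9.004 and 19.5 CPM (4.11-fold, adjusted p = 0.0488). The groups overlapped, and the call remained only without SFPQ-ABL1 line 2 or BCR-ABL1 line 1 or 2, with 0.142 without MSCV line 3. The summed level of this list was 550 to 826 CPM in the SFPQ-ABL1 lines and 448 to 1124 CPM in the MSCV lines, and Ly6g, Ctsg and S100a8 had no count. Cd79a fell to 48.0, 63.6, 62.9 and 57.8 CPM (1.61-fold, adjusted p = 0.0191), a call lost without MSCV line 2, 3 or 4 or SFPQ-ABL1 line 4 (0.0507 to 0.0569). It was the sole call among 6 early B markers tested, beside 0.977% of all genes tested that fell. Of the 6, 3 were below and 3 above zero, with a median log2 change of -0.098. The early B markers summed to 324 to 480 CPM against 470 to 593, so the sums overlapped. Ptprc, a member of that list that was not called (edgeR adjusted p = 0.254), made up a large part of both sums. It was at 196 to 325 CPM in the SFPQ-ABL1 lines and 282 to 414 CPM in the MSCV lines.

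Of the mast cell, basophil and eosinophil markers, 2 of 9 fell, beside 0.977% of all genes tested, and none rose. Of the 9, 5 were below and 4 above zero, with a median log2 change of -0.40. Leaving out single libraries gave 0 to 2 falls. Gata2, a factor of early progenitors and mast cells, was at 814, 1356, 854 and 797 CPM against 1506, 1632, 1617 and 1343 (1.596-fold lower, adjusted p = 0.0474); line 2 overlapped the vector lines, and the call remained only without line 2, with 0.134 without SFPQ-ABL1 line 1. That list summed to 1306 to 1763 CPM against 1584 to 1912, and Mcpt8 and Tpsb2 had no count. Tfrc, the transferrin receptor, rose in the erythroid list (1.96-fold, adjusted p = 0.0351), as 1 of 15 tested, beside 0.814% of all genes tested. Its call was lost without MSCV line 2, 3 or 4, SFPQ-ABL1 line 3 or 4 or BCR-ABL1 line 3 (0.0507 to 0.0941). Haemoglobin and other members of that list were not called, and its sums overlapped at 1495 to 2713 against 1526 to 2553 CPM. All 13 stromal markers were under 1 CPM in all 8 lines. The part of these marker levels in the other results was not tested.

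Line 2, with the fewest reads on Abl1 exon 9 and Sfpq exon 9, was also the line most often nearest to the vector, counted gene by gene. Over all genes together line 3 was nearest, at a mean root mean square log2 difference of 0.649 from the MSCV lines, with line 2 at 0.659, line 4 at 0.699 and line 1 at 0.771. Among the 308 called genes it was the SFPQ-ABL1 line nearest to the MSCV mean in 154 (50%, exact 95% interval 44.3 to 55.7, counting error only), beside 31.7% of all genes tested. The share was 62.1% among the 140 higher genes and 39.9% among the 168 lower. Line 1 was nearest in 7.79% of called genes and farthest in 55.2%, beside 19.7% and 37.2% of all genes tested, and it was farthest in 71.4% of the lower genes. Called genes were chosen with all 4 lines in the fit, so these shares are a description. The share for line 2 was 36.05% among genes called without MSCV line 1 and 40.2% among those called by DESeq2.

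A line left out of the fit gives a reading that did not enter the choice of genes, though the MSCV lines did. Of the 467 genes called without line 2, line 2 lay on the called side of the MSCV mean in 401 (85.9%). Its median difference was 0.40 on the log2 scale against 0.83 for the mean of the other 3 lines. For the genes that rose the values were 0.38 against 1.01, and for those that fell 0.41 against 0.75. Line 1, left out in the same way, gave 1.15 against 0.92 (108 genes), line 3 gave 0.63 against 0.82 (128 genes) and line 4 gave 0.69 against 0.99 (71 genes). Line 2 therefore kept the direction of most of these genes at 0.468 times the size, by the median ratio over genes, where the other lines were at 0.825 to 1.21. Whether the level of the fusion sets this difference was not tested.

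**Figure D5:**
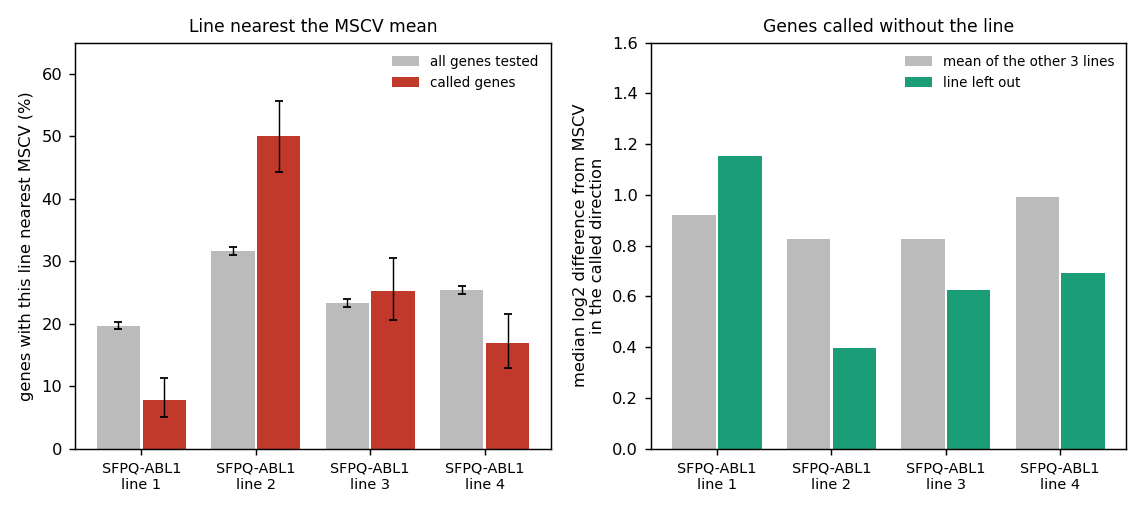
Left, percent of genes for which each SFPQ-ABL1 line lies nearest to the MSCV mean, for all genes tested (grey) and called genes (red), with exact 95% intervals that cover counting error only. Right, median log2 difference from MSCV in the called direction over genes called without that line, for the line left out (green) and the mean of the other 3 lines (grey): line 2 stands at 0.40 against 0.83 and line 1 at 1.15 against 0.92.

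The other fusion differed from SFPQ-ABL1 in 4471 of 17197 genes (26.0%), and BCR-ABL1 differed from MSCV in 5522 (32.1%). Both comparisons with MSCV share the vector lines, so only the direct test between the fusions is read here. Of the 31 stable genes, 16 differed between the fusions, 11 higher and 5 lower with SFPQ-ABL1. Smim5 was higher by 2.86 on the log2 scale (adjusted p = 0.000908). Among those with smaller differences, Bms1 (log2 difference 0.43, adjusted p = 0.00223) and Il3ra (0.37, adjusted p = 0.00838) were higher with SFPQ-ABL1, as were Spint2, Tcn2, Npc2 and Ikzf4 at 0.31 to 0.57. Zpbp (-0.59, adjusted p = 0.00432) and Ezh1 (-0.45, adjusted p = 0.00841) were lower, and Pla2g2e was lower by -3.96 (adjusted p = 9.35e-06), at 1.83 to 2.26 CPM in the BCR-ABL1 lines.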

How the data were processed

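RNA sequencing counts of 12 Ba/F3 lines were used, 4 per group, with groups and replicate numbers from the labels. The deposited tables hold raw read counts for Ensembl genes and for their exons. The submitters' processing notes name Subread, featureCounts and the mm10 build. No source used here gives their versions, annotation or strand setting, so overlapping genes may share reads. GENCODE M21 gave names for 55230 of 55471 gene identifiers. No normalization had been applied, and counts are reads without molecular identifiers.

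Genes passing filterByExpr (17197) were scaled by TMM and tested with edgeR 4.0.16 (R 4.3.3, limma 3.58.1) by the two-sided quasi-likelihood test on 12 libraries, the model holding nothing but the 3 groups, with Benjamini-Hochberg adjustment over all genes. Every adjusted p in the text comes from edgeR unless another tool is named. Alternatives were DESeq2 1.42.0, limma-voom, RLE factors, no factors, no filter, 8 libraries, a replicate block and leaving out each library. On simulated counts for this comparison (17197 genes) 56.9% of 2-fold and 87.8% of 4-fold changes were recovered, and 6.49% of calls were false. The simulation changed all SFPQ-ABL1 libraries alike and held no weaker line and no split between lines. Its shares are therefore not error rates of the calls on the real counts. Line levels were taken as log2 (CPM + 0.1). Pairs of lines within a group differed by 33.1 to 182 chi-square per degree of freedom, more than counting noise gives, so none was the same library deposited again.

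The members, gene lists and rules were chosen with earlier results of these data known. Named genes were the 15 higher and 15 lower called protein-coding genes with the smallest adjusted p, and the 12 largest rises and 12 largest falls, among those whose lines did not overlap and whose higher group averaged at least 5 CPM; members of the signalling, S100 and annexin lists; up to 4 members of every other list; Abl1 and Sfpq. Predicted names and immunoglobulin or T cell receptor segments were passed over. Stable genes outside this rule, Smim5, Pla2g2e and the non-coding ones among them, were named after their values were seen. The text describes a part of the genes the rule names. Of 40 gene lists, 26 held a called gene.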

Additional observations from a re-analysis of the deposited data

Results flagged for a closer look

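In 13 of 138 groups of 4 lines examined for 69 genes, 1 line lay far from the other 3 by Dixon's test. For independent, normally spread values chance gives about 1 in 20 such groups. The genes here were chosen with earlier results of these data known and need not be independent. That rate is therefore no chance level for these groups. SFPQ-ABL1 line 2 stood apart in Dusp6, at 125 CPM with the others at 34.4 to 47.7, and in Etv5, at 52.4 CPM with the others at 4.04 to 9.81. It was also high in Gata2, at 1356 CPM beside 797 to 854, and in Ccnd2, at 193 CPM beside 152 to 155, and low in Kcnk5, at 123 CPM beside 206 to 218. SFPQ-ABL1 line 1 was low in H2-DMb1, at 14.01 CPM beside 19.1 to 19.8, and high in Sec31a, at 140 CPM beside 110 to 112.

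Among the vector lines, MSCV line 2 was high in Jak2, at 396 CPM beside 151 to 189, in Pim2, at 17.7 CPM beside 13.8 to 14.2, and in S100a11, at 42.0 CPM beside 31.6 to 33.3. MSCV line 1 was high in Ankrd10, at 128 CPM beside 98.2 to 103. MSCV line 3 was high in Zfp36, at 17.2 CPM beside 10.6 to 11.3. MSCV line 4 was high in Gab3, at 5.08 CPM beside 3.43 to 3.70.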

How the results depend on the processing

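The count of changed genes depended on the fit. The share of them that were higher did too, from 36.8% by limma-voom to 64.8% without factors. Against 308 genes (140 higher, 168 lower), DESeq2 called 1131 (535 higher, 596 lower) and the 8 libraries alone 110 (46 and 64). Without the filter on low counts 438 genes passed, 216 of them higher. Leaving out 1 library gave 33 to 467 genes, 13 to 227 higher and 20 to 240 lower. Without MSCV lines 1 to 4 the counts were 344, 84, 33 and 84, without SFPQ-ABL1 lines 1 to 4 they were 108, 467, 128 and 71, and without BCR-ABL1 lines 1 to 4 they were 250, 283, 168 and 285. Fits with fewer libraries have fewer residual degrees of freedom, and the cause of the differences between lines was not tested. RLE factors (308), no factors (324) and limma-voom (285) stayed within 1.5 times. Of the 308 genes, 301 were called by DESeq2, 304 with RLE factors, 254 without factors, 259 by limma-voom and 102 with the 8 libraries alone. Of the named genes, Pim2 and S100g were not called by limma-voom (0.0962 and 0.253), nor S100a10, Tapbp and Gata2 without factors (0.0538 to 0.06). DESeq2 and edgeR without the filter both called Pik3c2g, Zfp36, Dusp4 and H2-D1. The 8 libraries less SFPQ-ABL1 line 2 did not call Pim2, Slfn2, Tfrc or Ypel3 (0.0725 to 0.0953).

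The labels give all groups replicate numbers 1 to 4. Same-numbered MSCV and SFPQ-ABL1 lines deviated together with correlations of 0.067 to 0.385, 3 of 4 above 0.1. MSCV lines 1 and 2 correlated best with SFPQ-ABL1 lines 2 and 1, and the numbers were not taken as pairs. The groups did share a split. All correlations within lines 1 and 2 or within lines 3 and 4 were positive, and all between those sets were negative (-0.347 to -0.0741). Lines 3 and 4 also differed least within each group, at 34.8 (MSCV) and 33.1 (SFPQ-ABL1) chi-square per degree of freedom. The main fit holds no term for this split, and its cause was not tested. With the replicate block 726 genes passed, 323 higher and 403 lower, and 303 of the 308 were among them. The block added calls for Abl1 (0.0407), Zfp36 (0.0231) and H2-D1 (0.018), and it gave 7 lower antigen presentation genes, 5 lower interferon genes, 3 lower immediate early genes, 3 higher ribosome biogenesis genes and 1 higher ERK gene.

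Of the named genes only Dusp6, which was not called, changed sign: its log2 change ran from -0.32 to 0.51 as single libraries were left out, -0.32 being without SFPQ-ABL1 line 2, both in the 12-library fit and, at -0.315, in the 8-library fit added after seeing the data. The share of called genes with line 2 nearest to MSCV (50%) was 40.2% with genes called by DESeq2 and ran from 36.05% without MSCV line 1 to 54.8% without MSCV line 4. Fusion exon levels moved by less than 1 SD between scalings. At these depths a level of 1 CPM rests on at least 59.4 counts, so counting error limits only genes well under that level.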
